A study of Mus musculus with 8 samples.

Results

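The 10 mature miRNAs described here come from 6 precursors that lie within 9600 bases of each other on mouse chromosome 12, in the imprinted Dlk1-Dio3 region. They were chosen by name as the mature miRNAs of mir-337, mir-431, mir-433, mir-127, mir-434 and mir-136, each carrying the mouse prefix mmu (mmu-miR-127-3p, mmu-miR-127-5p, mmu-miR-434-5p, mmu-miR-434-3p, mmu-miR-136-3p, mmu-miR-136-5p, mmu-miR-337-5p, mmu-miR-337-3p, mmu-miR-433-3p and mmu-miR-431-5p), and they are 10 of the 1418 entries (a mature arm paired with its precursor) in the tables. The study sequenced small RNA from 3 calvaria libraries and from MC3T3 E1 sc4 cells at 5 titled days, with 1 library per day. Calvaria, the frontal and parietal bones of the skull vault, came from female C57BL/6 mice carrying Prrx1-Cre, 2 to 3 days old, after a short digestion with collagenase and trypsin. The Prrx1 promoter drives Cre in limb and part of the skull mesenchyme, and no floxed allele is named in the labels. The MC3T3 E1 sc4 line is a subclone of osteoblast precursors from mouse calvaria, labelled C57BL/6 and used at passage 10 to 15. The day 0 cells were undifferentiated, and the cells of days 6, 10, 17 and 24 were kept in 50 μg/ml ascorbic acid and 4 mM β-glycerol phosphate. Each MC3T3 library holds equal amounts of RNA from 3 cultures, so no day has a replicate. Whether calvaria 1, 2 and 3 came from different animals is not labelled, and the p-values below reflect the spread among the 8 libraries, which may be technical in part.

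Imprinted genes are expressed from the allele of a single parent. In the Dlk1-Dio3 region the protein-coding genes Dlk1, Rtl1 and Dio3 are expressed from the paternal chromosome, and long non-coding transcripts with many miRNAs and small nucleolar RNAs from the maternal chromosome. Rtl1 encodes a retrotransposon-derived protein needed in placenta and muscle. A maternal transcript runs antisense to it and carries miRNAs, several of which are known in mouse to direct cleavage of the Rtl1 mRNA through full complementarity. A miRNA precursor is a hairpin whose 5p and 3p arms each can yield a mature miRNA, and the bases 2 to 8 of a mature miRNA (its seed) carry most of its pairing with target mRNAs.

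The mature sequences are shown because the pairing to Rtl1 and the separation of the arms in the counts both rest on them. RefSeq sequences (GRCm38.p6) were found for all 10 miRNAs and for the other arms of mir-431 and mir-433, which are the remaining 2 of the 12 arms. They are given 5′ to 3′ with the seed in capitals:
miR-337-5p: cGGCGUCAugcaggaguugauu
miR-337-3p: uCAGCUCCuauaugaugccuuu
miR-431-5p: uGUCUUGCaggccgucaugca
miR-431-3p: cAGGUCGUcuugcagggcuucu
miR-433-5p: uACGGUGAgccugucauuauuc
miR-433-3p: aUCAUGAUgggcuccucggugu
miR-127-5p: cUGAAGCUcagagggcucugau
miR-127-3p: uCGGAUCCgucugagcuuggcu
miR-434-5p: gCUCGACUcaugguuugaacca
miR-434-3p: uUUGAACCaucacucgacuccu
miR-136-5p: aCUCCAUUuguuuugaugaugg
miR-136-3p: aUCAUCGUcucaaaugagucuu
The 12 seeds were all different. None of the 12 was found in any other of the 1738 mature miRNAs in that table. The longest run of bases shared by any 2 of the 12 arms was 10, between miR-431-5p and miR-431-3p. A run of 9 bases was shared by miR-434-5p and miR-434-3p, and another by miR-337-5p and miR-431-5p. All 80 count values of the 10 miRNAs were whole numbers within 0.005.

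The name Rtl1-antisense held for 5 of the 6 precursors. In GRCm38 (GENCODE M21), Rtl1 lies on the minus strand at chr12:109589193-109600330, and the 6 precursors lie on the plus strand. Mir431 (chr12:109590447-109590537), Mir433 (chr12:109591715-109591838), Mir127 (chr12:109592846-109592915), Mir434 (chr12:109594506-109594599) and Mir136 (chr12:109595327-109595388) lie wholly opposite the coding sequence in an Rtl1 exon. Mir337 (chr12:109585789-109585885) ends 3308 bases from the annotated end of Rtl1 and does not overlap it. All 10 arms of the 5 overlapping precursors had a full complement in the 6358-base Rtl1 transcript, and neither arm of mir-337 had. For the overlapping precursors this follows from their position opposite the exon and is no separate result. For miR-127-3p this site is at transcript bases 2642 to 2663, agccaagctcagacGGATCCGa, with the bases opposite the seed in capitals. Rtl1 mRNA itself was not measured in these small RNA libraries.

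**Figure D1:**
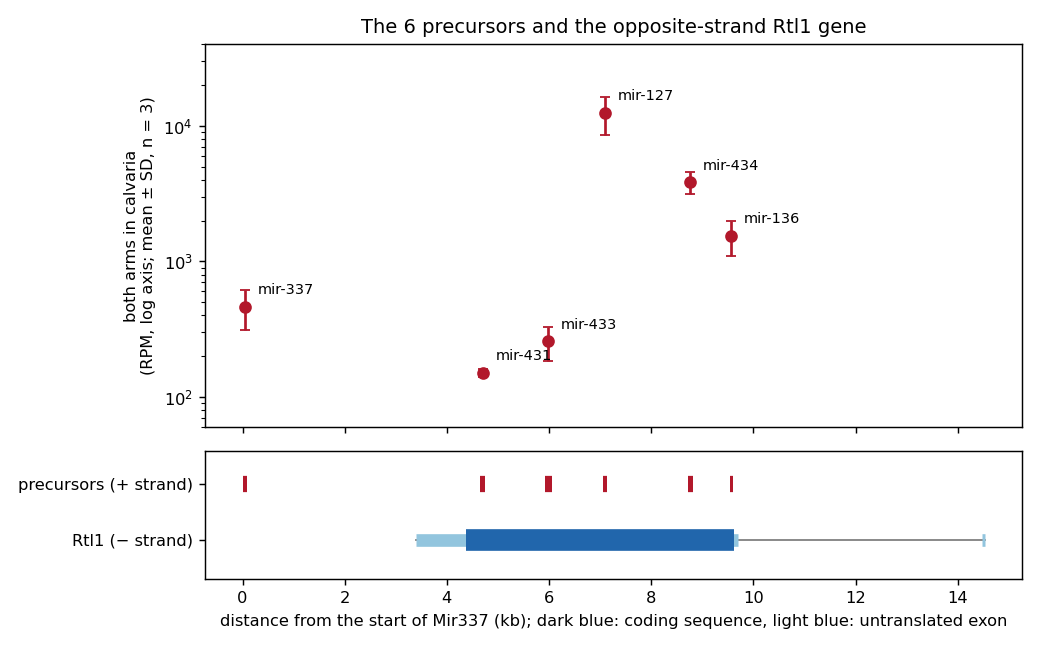
The upper panel plots the summed level of both arms of each precursor in calvaria (RPM on a log axis, mean ± SD, n = 3) against distance from the start of Mir337 in kb, and the lower panel shows the precursors above the opposite-strand Rtl1 gene. The 5 other precursors stand over the Rtl1 coding sequence while mir-337 stands outside the gene, and the level is highest at mir-127, with 12472 ± 3873 RPM.

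Values are estimated counts and the RPM (reads per 1000000 counts of the library) derived from them. Library totals were 1183011 to 2023036 counts in calvaria and 2742368 to 4031962 counts in MC3T3 cells, so a miRNA was easier to detect in the MC3T3 libraries. A count of 0 was taken to allow up to 3 counts, which is 0.177 RPM over the 5 MC3T3 libraries together. Calvaria 3 stood apart from the other calvaria libraries in some of the marker miRNAs of other cell types. Endothelial markers (2 of 2 listed found) summed to 20323 RPM in calvaria 3, against 9028 and 10749 RPM in calvaria 1 and 2, and 6.2 to 19.0 RPM in MC3T3 cells. Cartilage markers (4 of 4 found) summed to 61235 RPM in calvaria 3, against 111611 and 110887 RPM in calvaria 1 and 2, and 18218 to 28775 RPM in MC3T3 cells. Blood cell markers (7 of 7 found) were also highest in calvaria 3, at 454.1 RPM, against 307.7 and 362.1 RPM in calvaria 1 and 2, and 38.9 to 110.6 RPM in MC3T3 cells. Striated muscle markers (7 of 7 found) summed to 642.4 RPM in calvaria 3, against 367.7 and 283.2 RPM in calvaria 1 and 2, and 212.6 to 574.4 RPM in MC3T3 cells, with miR-208a-3p and miR-208b-3p at 0 in every library. The blood and muscle sums mix markers that went opposite ways between calvaria and MC3T3 cells. As point estimates of the edgeR fit below, log2 differences were 2.08 for miR-1a-3p and 3.04 for miR-133a-3p, but -1.28 for miR-206-3p and -1.95 for miR-499-5p. Among the blood markers miR-486-5p was at -0.74, and the others were higher in calvaria. Mesenchymal markers (4 of 5 found by name) stood at 130937 to 144798 RPM in calvaria, highest in calvaria 3, and 128697 to 185009 RPM in MC3T3 cells. Nervous system markers (4 of 4 found) gave 602.7 to 685.1 RPM in calvaria and 328.9 to 460.3 RPM in MC3T3 cells, where miR-124-3p was at 0. Epithelial markers (6 of 6 found) gave 73.2 to 78.6 RPM in calvaria and 3.22 to 12.4 RPM in MC3T3 cells.

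The 10 miRNAs were plentiful in newborn calvaria and near or below the detection limit in the MC3T3 line on every titled day. Together they took 20577, 22660 and 12842 RPM in calvaria 1, 2 and 3, which is 1.87% ± 0.517 of all counts (SD, n = 3). In MC3T3 cells they took 2.23, 4.12, 2.58, 0.761 and 1.82 RPM at days 0, 6, 10, 17 and 24. Those levels rest on 9, 13, 8, 3 and 5 counts, or 38 counts of 16974864 in all. Bulk libraries cannot tell fewer cells of a type from less RNA per cell.

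miR-127-3p, a main Rtl1-pairing miRNA known to be abundant in placenta and embryo, was the most abundant of the 10. It stood at 12573, 14921 and 7629 RPM in calvaria 1, 2 and 3, a mean of 11708 ± 3722 RPM (SD, n = 3), and ranked 21 among the 1281 mature miRNAs by mean calvaria level. In MC3T3 cells it had 4, 12, 3, 0 and 0 counts at days 0, 6, 10, 17 and 24. The lowest calvaria library was thus far above the highest MC3T3 library, at 3.80 RPM (95% Poisson interval 1.96 to 6.64) on day 6. The pooled level was 10861 times higher in calvaria (95% binomial interval 6954 to 18042). In the edgeR quasi-likelihood test its log2 difference was 13.16 ± 0.76 (approximate SE, Benjamini-Hochberg adjusted p = 2.07e-07). Here and below the SE was worked back from the log2 difference and the F statistic of the test. With few MC3T3 counts it can be too narrow. The intervals of the pooled ratios cover counting error only and leave out the spread among libraries, so they can be too narrow as well. Without the day 6 library the log2 difference of miR-127-3p was 14.22. Against days 17 and 24 alone, where its count was 0, the fitted value was 17.50 and is no bound. Its 5p arm, miR-127-5p, had 852.9, 857.6 and 582.1 RPM in calvaria and 1 count each at days 0 and 17 in MC3T3 cells. Its mean of 764.2 ± 157.7 RPM (SD, n = 3) ranked 89 in calvaria, and the pooled ratio of 6578 (1820 to 54340) rests on those 2 MC3T3 counts. Its log2 difference was 12.05 ± 0.46 (edgeR adjusted p = 1.63e-08).

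mir-434 was the second most abundant precursor and gave both arms in quantity. miR-434-5p stood at 2680, 2486 and 2260 RPM in calvaria 1, 2 and 3, against 3, 0, 3, 0 and 1 counts over the MC3T3 days. Its calvaria values lay close together and differed at most 1.19-fold. miR-434-3p stood at 1645, 1645 and 754.8 RPM in calvaria, against 1, 0, 0, 1 and 0 counts in MC3T3 cells. Their means of 2475 ± 210.0 and 1348 ± 513.9 RPM (SD, n = 3) ranked 54 and 67 among the mature miRNAs of calvaria. For the 3p arm calvaria 1 and 2 were 2.18 times above calvaria 3. The pooled ratios were 5989 (2906 to 14899) for the 5p arm and 11731 (3246 to 96889) for the 3p arm. The log2 differences were 12.23 ± 0.57 for miR-434-5p (edgeR adjusted p = 5.43e-08) and 12.86 ± 0.54 for miR-434-3p (adjusted p = 3.43e-08). Against days 17 and 24 alone the value for miR-434-5p was 13.27.

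mir-136, another precursor with Rtl1-pairing arms, came next. miR-136-3p stood at 1508, 1427 and 812.9 RPM in calvaria 1, 2 and 3, and its MC3T3 counts were 0, 0, 2, 1 and 4 over the days. Its calvaria mean was 1249 ± 380.1 RPM (SD, n = 3), rank 68, and its pooled ratio had a 95% interval of 1490 to 7644. Here the highest MC3T3 count fell on day 24, whereas for miR-127-3p it fell on day 6; no 2 days could be tested against each other. Its log2 difference was 11.24 ± 0.62 (edgeR adjusted p = 1.51e-07), 12.10 without day 24 and 10.27 against days 17 and 24 alone. miR-136-5p stood at 336.4, 341.1 and 206.2 RPM in calvaria and at 0 in all MC3T3 libraries. Its pooled level was thus at least 1698-fold higher in calvaria. Its calvaria mean was 294.6 ± 76.6 RPM (SD, n = 3), rank 129. On the opposite strand Mir3071 overlaps Mir136 in the annotation, and both mir-3071 arms were listed at 0 in every library.

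The remaining 3 precursors were scarcer, with both arms together at 464.7 ± 152.5 RPM for mir-337, 256.9 ± 71.0 RPM for mir-433 and 151.0 ± 10.9 RPM for mir-431 in calvaria (SD, n = 3). miR-337-5p, of the precursor outside Rtl1, stood at 517.3, 545.2 and 273.9 RPM in calvaria, and miR-337-3p at 18.6, 23.2 and 15.6 RPM. Neither had a count in MC3T3 cells, so their pooled levels were at least 2591-fold and 112-fold higher in calvaria. miR-433-3p, reported in mouse cells to target the osteoblast transcription factor Runx2, stood at 303.5, 273.8 and 176.4 RPM in calvaria and had 1 count in MC3T3 cells, at day 6. Its pooled ratio was 4291 (769 to 169629), and its log2 difference of 11.09 ± 0.48 (edgeR adjusted p = 3.89e-08) became 12.27 without that day and 11.96 against days 17 and 24 alone, both against counts of 0 and so no bounds. miR-431-5p, known in mouse muscle stem cells as a repressor of Pax7, stood at 142.9, 140.9 and 131.0 RPM in calvaria. It had no count in MC3T3 cells, so its pooled level was at least 784-fold higher in calvaria. Its 3 calvaria values differed by a smaller fold than those of the other 9 miRNAs, with a mean of 138.3 ± 6.34 RPM (SD, n = 3).

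**Figure D2:**
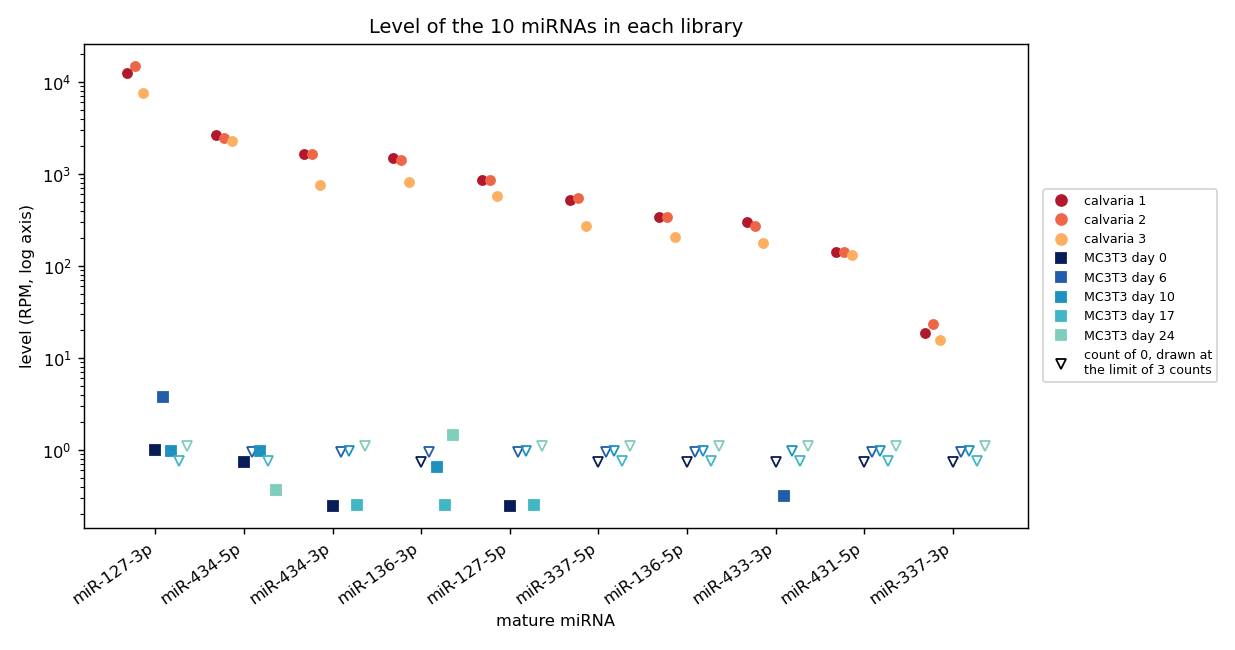
The level of each of the 10 miRNAs is plotted in RPM on a log axis, with the 3 calvaria libraries as circles left of the 5 MC3T3 libraries as squares; open triangles mark a count of 0 at the limit that 3 counts set in that library. All calvaria points lie above all MC3T3 points of the same miRNA, and miR-337-3p has the smallest gap, with 15.6 to 23.2 RPM in calvaria.

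In the fit over all entries, 32.7% of the 551 entries tested passed as higher in calvaria (edgeR with Benjamini-Hochberg adjustment over all entries, threshold 0.05), and all 10 of these miRNAs were among them. That count supports nothing beyond the values above, because the filter asked for 10 counts in at least 3 of 8 libraries. The calvaria libraries alone carried all 10 through it; miR-127-3p was the only one to reach 10 counts in an MC3T3 library as well, that of day 6. Of the 94 entries that reached 10 counts in all 3 calvaria libraries and in at most 1 MC3T3 library, 100% were called higher. The adjusted p-values of the 10 ran from 1.63e-08 for miR-127-5p to 1.20e-05 for miR-337-3p. The split of all calls moved with the scaling, from 180 higher and 186 lower to 216 and 128 with DESeq2 size factors and 143 and 251 with upper quartile factors. The calvaria libraries come from digested tissue and the MC3T3 libraries from a cultured line, and the effects of these differences cannot be told apart.

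Within calvaria the mean levels spanned 611-fold, from miR-127-3p to miR-337-3p. The descending order was miR-127-3p, miR-434-5p, miR-434-3p, miR-136-3p, miR-127-5p, miR-337-5p, miR-136-5p, miR-433-3p, miR-431-5p and miR-337-3p. In that order 4 neighbouring pairs overlapped over the 3 libraries. These were miR-434-3p with miR-136-3p, miR-136-3p with miR-127-5p, miR-337-5p with miR-136-5p, and miR-136-5p with miR-433-3p. The other 5 neighbouring pairs did not overlap. The order is one of counts, and mature miRNAs have nearly the same length. How evenly the library preparation recovered different sequences was not tested. The same limit holds for the shares of the arms.

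The arms of a precursor come from the same hairpin, and their balance differed widely between the 6 precursors. The 3p arm held 98.1% ± 1.42 of the counts of mir-433, 93.7% ± 0.83 of mir-127 and 80.7% ± 0.997 of mir-136 (SD, n = 3). It held 4.32% ± 0.985 of mir-337 and 8.33% ± 2.60 of mir-431, where the 5p arm was the main product. The other arms of mir-431 and mir-433 were near the counting limit, with 21, 25 and 11 counts for miR-431-3p and 12, 12 and 1 counts for miR-433-5p in calvaria 1, 2 and 3. Neither was detected in MC3T3 cells.

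mir-434 had the most even balance of arms, with its 5p arm higher in every calvaria library, and its 3p share varied most in percentage points. Its hairpin and that of mir-127, the most abundant precursor, are shown with the mature arms in capitals:
mir-434: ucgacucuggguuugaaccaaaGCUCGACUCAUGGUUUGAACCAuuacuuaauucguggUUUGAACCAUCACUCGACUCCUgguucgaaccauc
mir-127: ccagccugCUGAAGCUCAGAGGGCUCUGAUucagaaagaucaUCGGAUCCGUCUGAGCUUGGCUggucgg
In mir-434 the 3p share was 38.0% (exact 95% binomial interval 36.7 to 39.4) in calvaria 1 and 39.8% (38.8 to 40.9) in calvaria 2. It was 25.04% (23.7 to 26.4) in calvaria 3, outside both intervals. Calvaria 1 and 2 also lay outside each other's intervals, by a smaller step. In mir-127 the share was 93.6% (93.3 to 94.0) in calvaria 1 and 94.6% (94.3 to 94.8) in calvaria 2. It was 92.9% (92.4 to 93.4) in calvaria 3. Each mir-127 share lay outside the intervals of the other libraries, so this did not set calvaria 3 apart. These intervals cover counting error only, and no test compares single libraries. The few MC3T3 reads, pooled over days, held 19 of 21 counts on the 3p arm for mir-127 and 2 of 9 for mir-434, or 22.2% (2.81 to 60.01).

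**Figure D3:**
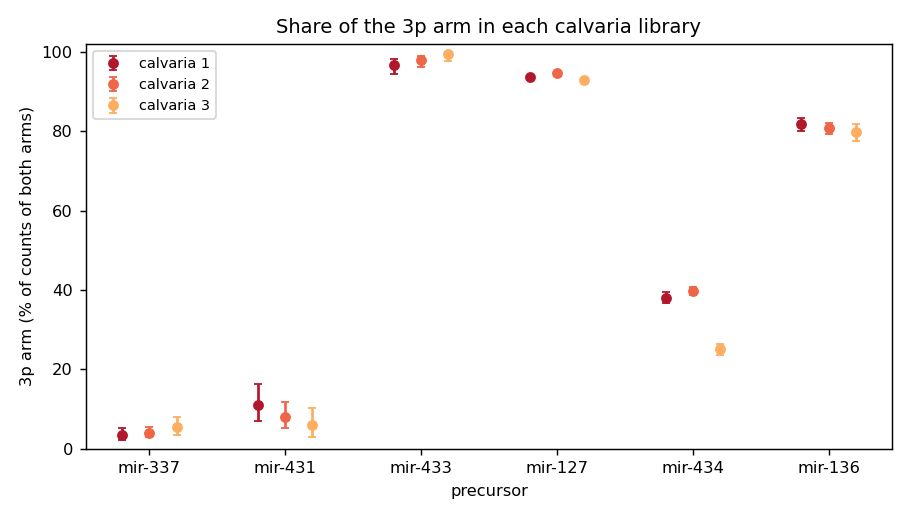
The share of counts on the 3p arm, in percent of both arms, is plotted for each precursor and calvaria library with exact 95% binomial intervals of counting error. mir-433, mir-127 and mir-136 lie at 79.8% or above and mir-337 and mir-431 at 11.1% or below, while mir-434 lies between, at 38.0%, 39.8% and 25.04%.

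All 10 miRNAs were lowest in calvaria 3, in RPM and in TMM-scaled CPM alike. The same library was the lowest for 46.2% of the 400 entries with a mean of at least 10 RPM in calvaria. The size of the step differed between miRNAs. miR-431-5p differed at most 1.09-fold over the libraries and miR-434-5p 1.19-fold, while miR-337-5p, miR-127-3p and miR-434-3p were 1.99, 1.96 and 2.18 times higher in their highest than in their lowest library. The SD of log2 RPM ran from 0.07 for miR-431-5p to 0.65 for miR-434-3p, with a median of 0.41 over the 10 miRNAs against 0.26 over the 400 entries. Calvaria 1 and 2 lay close together for most of the 10. Without calvaria 3 the 10 miRNAs averaged 21619 RPM together, against 18693 ± 5173 RPM over all 3 libraries, and the mir-434 3p share averaged 38.9%, against 34.3% ± 8.07. Of the markers given above, those of endothelium, striated muscle, blood and mesenchyme were highest in calvaria 3 and those of cartilage lowest. For the nervous system and epithelial markers calvaria 3 lay between the other calvaria libraries. The part of these markers in the difference was not tested.

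**Figure D4:**
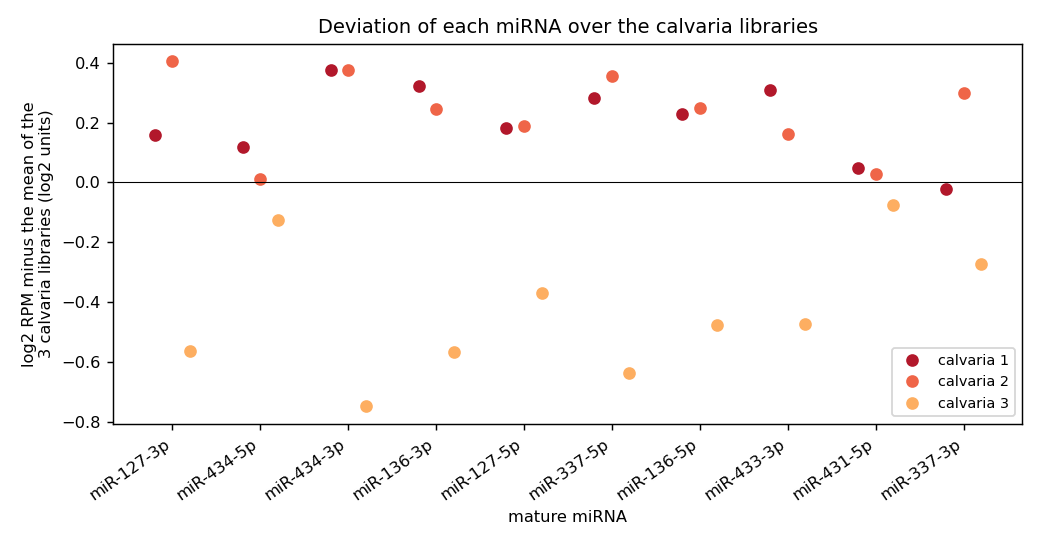
For each of the 10 miRNAs the log2 RPM of each calvaria library is plotted minus the mean of the 3 libraries, in log2 units. Calvaria 3 is the lowest point for every miRNA, and the points lie closest together for miR-431-5p, with an SD of 0.07, and farthest apart for miR-434-3p, with an SD of 0.65.

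The 13 other arms listed for this stretch of the locus were scarce. They comprise the minor arms of mir-431 and mir-433 and the arms of mir-540, mir-665, mir-3070a, mir-3070b, mir-432 and mir-3071. They summed to 125.1, 123.6 and 70.7 RPM in calvaria and had no count in any MC3T3 library. miR-540-3p led them with 61.3 ± 16.1 RPM (SD, n = 3), and 4 of the 13 had no count in calvaria either. A further 7 precursors of the region were listed outside both clusters, and their 13 arms summed to 1686, 1835 and 1002 RPM in calvaria and 4 counts in MC3T3 cells. Among these miR-341-3p had 960.1 ± 255.0 RPM in calvaria.

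The distal miR-379/miR-410 cluster starts 113672 bases beyond Mir136 on the same strand and holds far more counts than the other neighbours. Its 71 listed arms summed to 26512, 29523 and 23458 RPM in calvaria, and 243 counts in MC3T3 cells. The arms of mir-299a and mir-496a, some of them detected in calvaria, were not matched by name. They are left out of the cluster sum and of every ratio to it. Relative to it, the 10 miRNAs stood at 0.776 (exact 95% binomial interval 0.763 to 0.789) in calvaria 1, 0.768 (0.758 to 0.777) in calvaria 2 and 0.547 (0.537 to 0.558) in calvaria 3. The sum of the distal cluster was also lowest in calvaria 3, by a smaller margin than that of the 10 miRNAs and those of the 2 scarcer neighbour groups above. Its most abundant arm, miR-379-5p, held 12418, 24028 and 15604 of the 31364, 59727 and 31511 cluster counts in calvaria 1, 2 and 3. The share of this arm was thus largest in calvaria 3, which lowers the ratio there. A ratio without this arm was not computed. With all listed arms the ratio averaged 0.697 ± 0.130 over the 3 calvaria libraries (SD) and 0.772 without calvaria 3. In MC3T3 cells the same ratio was 0.191, 0.165, 0.145, 0.083 and 0.192 at days 0, 6, 10, 17 and 24, or 0.156 (0.108 to 0.221) pooled. The pooled MC3T3 interval lay below all 3 calvaria values. This compares the counts of these libraries and carries no test. Within the 10, miR-127-3p made up 62.1% ± 3.34 of the counts in calvaria (SD, n = 3) and 50.0% (33.4 to 66.6) of the 38 counts in MC3T3 cells.

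**Figure D5:**
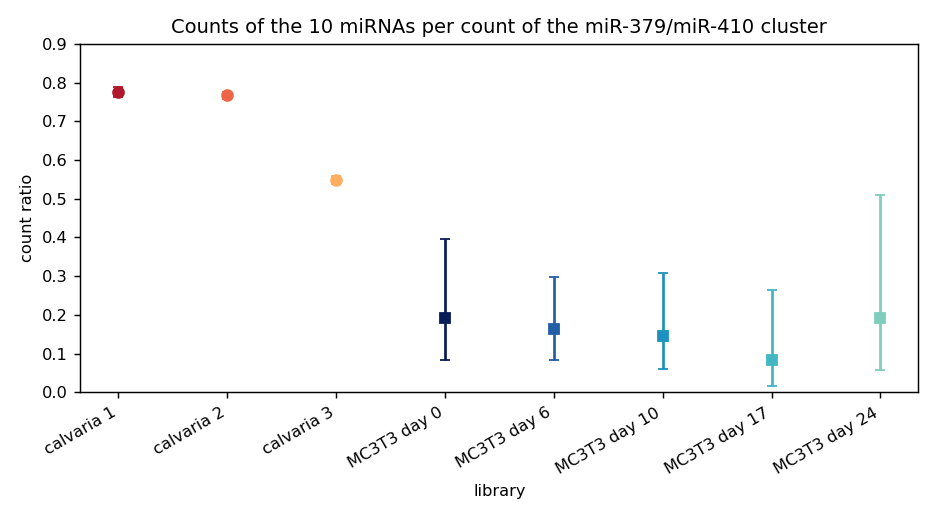
The summed counts of the 10 miRNAs divided by those of the listed arms of the miR-379/miR-410 cluster are plotted for each library. The arms of mir-299a and mir-496a are left out. Bars are exact 95% binomial intervals of counting error. The calvaria libraries lie at 0.776, 0.768 and 0.547 and the MC3T3 libraries between 0.083 and 0.192.

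The entries with the pattern most like miR-127-3p were found by the root mean square difference of log2(RPM + 1) over the 8 libraries, each entry centred on its own mean. Among 390 other entries of at least 10 RPM in calvaria, the 5 closest were miR-379-5p at 0.89, miR-340-5p at 0.95, miR-411-5p at 1.09, miR-126-3p at 1.33 and miR-541-5p at 1.38 log2 units. Of these, 3 belong to the distal cluster of the same region. miR-340-5p and the endothelial miR-126-3p lie outside it, with 2756 ± 412.4 and 12317 ± 5920 RPM in calvaria (SD, n = 3), against 0.341 ± 0.400 and 9.17 ± 4.75 RPM in MC3T3 cells (SD over the 5 days). Among the 9 other miRNAs of the group the closest was miR-434-5p at 1.17. The measure rests mainly on the size of the gap between calvaria and MC3T3 cells and carries no test.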

How the data were processed

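Small RNA was sequenced from 3 calvaria samples and from MC3T3 cells on 5 days; the libraries used a NEBNext kit, per the labels' protocols. One table, as deposited, gives estimated counts for each arm and its precursor. The other, also deposited by the authors, gives RPM, and dividing the counts by the column sums returned these with a largest deviation of 0.0127 RPM. Cutadapt 0.9.5, Bowtie 0.12.7 and mm10 were used, per the submitters' processing notes, which name no role for them. The counting program and the miRBase release were not given in the sources used here. Days follow the sample titles; each MC3T3 column name gives a day 3 lower, for all 5 libraries, and the mark "veh" in 4 of them is not explained in the sources used here. The members and lists were chosen with earlier results of these data known.

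Estimated counts were rounded to whole numbers. Entries with 10 counts in at least 3 of the 8 libraries were tested with the edgeR quasi-likelihood test (edgeR 4.0.16, R 4.3.3), TMM factors and Benjamini-Hochberg adjustment, threshold 0.05, with the 5 MC3T3 libraries as 1 group whose spread includes the change over days. The step was run on simulated counts in which 200 entries were changed 4-fold. It recovered 99.5% of these and called 2.70% of the other entries. That setting is unlike the near-zero MC3T3 counts of the 10 miRNAs and does not bear on their fits. Alternatives used DESeq2 1.42.0, limma 3.58.1 on log2(RPM + 1) and log2(RPM + 10), other scalings and filters, counts summed per mature miRNA, and left-out libraries. Where MC3T3 counts were 0, folds are bounds of the pooled calvaria level against 3 counts over the 5 libraries, not of each calvaria library. These bounds take the calvaria count as exact, and the exact 95% Poisson interval of 0 counts reaches 3.69. They are thus less strict than the binomial intervals of the other pooled ratios. Intervals are exact 95% Poisson (counts) or binomial (shares and ratios); the labels name no molecular identifiers, and these intervals, like the limits, include no more than counting error. Named miRNAs were all 10 members, the other arms of their precursors and the 5 entries closest to miR-127-3p.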

Additional observations from a re-analysis of the deposited data

How the results depend on the processing

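All 10 miRNAs stayed higher in calvaria under each of the 19 alternatives that tested them. The highest adjusted p was 0.000121 (edgeR quasi-likelihood test without calvaria 2). That agreement supports nothing beyond the values, because the 10 were at or near 0 counts in MC3T3 cells. miR-337-3p was not tested with a minimum of 100 counts. The size of the log2 difference depended on the pseudocount: limma gave 4.32 (miR-337-3p) to 12.61 (miR-127-3p) on log2(RPM + 1) and 1.54 to 9.99 on log2(RPM + 10), a scale that understates the change of low values. The count of entries lower in calvaria was 186; it was 109 with the DESeq2 Wald test, and 85 entries were higher and 87 lower with a minimum of 100 counts, which tests fewer entries. With 1 library left out at a time, 176 to 202 were higher and 117 to 187 lower; without calvaria 1 and without calvaria 2, each with the filter in 2 libraries, 123 and 117 were lower, and the cause was not tested. The median log2 difference of all entries lay between -0.61 and 0.18 over the alternatives, small beside those of the 10 miRNAs. Leaving out 1 calvaria library gave a summed level of 16710 to 21619 RPM and a ratio to the distal cluster of 0.658 to 0.772; the 3p share of mir-434 became 31.5% to 38.9%. The leave-one-day-out sums in MC3T3 cells, 1.85 to 2.69 RPM, and the TMM check of calvaria 3 were chosen after seeing the data. No paired analysis was possible because each MC3T3 day has 1 library and the groups share no numbered replicates. Depth limits the MC3T3 values, most of which are 0 to 4 counts.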
